A study of Mus musculus with 6 samples.

Results

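The genes described here are 34 genes of protein folding and quality control in the endoplasmic reticulum (ER), found by their mouse symbols among 18324 gene rows of a count table. They comprise 11 chaperones and cochaperones, 6 disulfide isomerases and other folding enzymes, 7 genes of ER-associated degradation, 6 genes of the translocon, and the 3 stress sensors together with *Xbp1*. RNA came from B16-F10, a pigmented mouse melanoma line, grown in serum-containing medium with no treatment and sorted by light scatter into high-pigmented and low-pigmented cells. Each group has 3 libraries, and 1 library of each group shares a title suffix (16-9-15, 18-8-14 and 1-9-14, called pairs 1, 2 and 3). Genotype, line and culture are the same in both groups, so the sort by light scatter is the only labelled difference. The labels do not say whether the libraries come from separate cultures, so p-values measure the spread between these libraries, which may be technical.

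Secreted and membrane proteins enter the ER through the Sec61 translocon and fold with the help of BiP, the product of *Hspa5*, of the lectin chaperones calnexin and calreticulin, and of protein disulfide isomerases. Proteins that fail to fold are sent back to the cytosol for degradation. When unfolded proteins accumulate, the sensors ATF6, IRE1 (*Ern1*) and PERK (*Eif2ak3*) start the unfolded protein response, in which ATF6 and spliced XBP1 raise transcription of the chaperones. In melanocytes, tyrosinase and related melanosomal glycoproteins are made through this route, and calnexin assists the folding of tyrosinase.

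ATF6 acts through the ER stress response element, CCAAT and CCACG separated by 9 bases, which marks many of these genes. It was searched on both strands from 250 bases before to 50 after the annotated starts in RefSeq (GRCm38.p6), where 28 of the 34 genes have an entry. A match was present in 8 of the 28 genes (28.6%) and in 37 of 27025 genes overall (0.137%). The matches are shown because the genes that hold them include most of the chaperones with the largest differences below. Whether the element bears on those differences was not tested. Each is read on the strand of the motif, with the fixed bases in capitals.
*Hspa5*, chr2:34772025-34772043, plus strand: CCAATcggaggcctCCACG
*Hsp90b1*, chr10:86705638-86705656, minus strand: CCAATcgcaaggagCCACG
*Hsp90b1*, chr10:86705533-86705551, plus strand: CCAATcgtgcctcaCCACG
*Calr*, chr8:84847075-84847093, plus strand: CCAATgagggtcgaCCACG
*Canx*, chr11:50325800-50325818, minus strand: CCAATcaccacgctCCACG
*Dnajc3*, chr14:118937827-118937845, plus strand: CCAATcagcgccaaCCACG
*Creld2*, chr15:88819520-88819538, minus strand: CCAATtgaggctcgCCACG
*Pdia6*, chr12:17266491-17266509, plus strand: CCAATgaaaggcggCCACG
*Syvn1*, chr19:6046532-6046550, plus strand: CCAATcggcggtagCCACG

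The element of *Hspa5* lies 65 to 47 bases before the annotated start, and the 79 bases around it (chr2:34771995-34772073, plus strand) are shown to place it beside the promoter's TA-rich stretch.
*Hspa5* upstream: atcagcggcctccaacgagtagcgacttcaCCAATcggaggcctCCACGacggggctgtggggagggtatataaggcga
The related element, ATTGG and CCACG separated by 1 base, matched 2 of the 28 genes, *Dnajb11* and *Herpud1*, against 0.0444% of all genes, and TGACGTGG, the core of the XBP1 site, matched *Txndc5* alone, against 0.714%. None of the matches overlapped another. In *Herpud1* the element lies at chr8:94386377-94386387 on the plus strand: ATTGGgCCACG. A match in these windows describes sequence only, and says nothing of binding in these cells.

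Libraries held 3819605 to 7311131 counts on genes. Those of pair 2 stood apart: the row RP23-81C12.3 and the mitochondrial ribosomal RNA genes took 66.1% and 34.8% of gene counts in its high- and low-pigmented library, against 5.05% to 6.99% elsewhere. Levels below are CPM, read counts brought to a common library size after TMM scaling, which adjusts for such composition. All 7 melanocyte markers were counted, at summed levels of 4423 to 20638 CPM in high-pigmented and 6161 to 17203 CPM in low-pigmented libraries. Both minima are those of pair 2, whose high-pigmented library lay below its partner. In pairs 1 and 3 the sums were 12297 to 20638 CPM in high-pigmented and 10572 to 17203 CPM in low-pigmented libraries. Markers of other cell types were near 0 in 5 of the libraries, with summed levels of 0.931 to 5.26 CPM for 5 fibroblast, 0 to 3.89 CPM for 4 immune, 0 for 3 endothelial and 0.494 to 6.40 CPM for 4 epithelial markers. The high-pigmented library of pair 2 had the highest sum of each list, at 33.0, 26.6, 11.6 and 15.1 CPM. Markers at 0 or not listed included *Ptprc*, *Cd3e*, *Dcn*, *Lum*, *Cdh5*, *Kdr* and *Krt8*. The part of these reads in the results was not tested.

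The 34 genes together took a smaller share of the reads in high- than in low-pigmented cells of every pair. Their share of gene counts was 2.21% against 3.11% in pair 1 (high- against low-pigmented), 0.333% against 1.20% in pair 2, and 1.59% against 1.90% in pair 3. The Wilson 95% interval of the lowest share was 0.327% to 0.339%, which covers counting error only. With the dominant rows of pair 2 left out of the totals, the shares in pairs 1, 2 and 3 were 2.38%, 0.984% and 1.70% against 3.28%, 1.83% and 2.01%. *Hspa5* alone supplied between 14.8% and 40.9% of the reads on the 34 genes, but the summed level of the other 33 was also lower in each high-pigmented library: 10767, 6157 and 8996 CPM against 13780, 13865 and 10127 CPM in pairs 1, 2 and 3. The groups overlap in each of these measures, because the pairs differ in level. Fewer transcripts per cell and fewer cells with high levels cannot be told apart in such bulk samples.

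**Figure D1:**
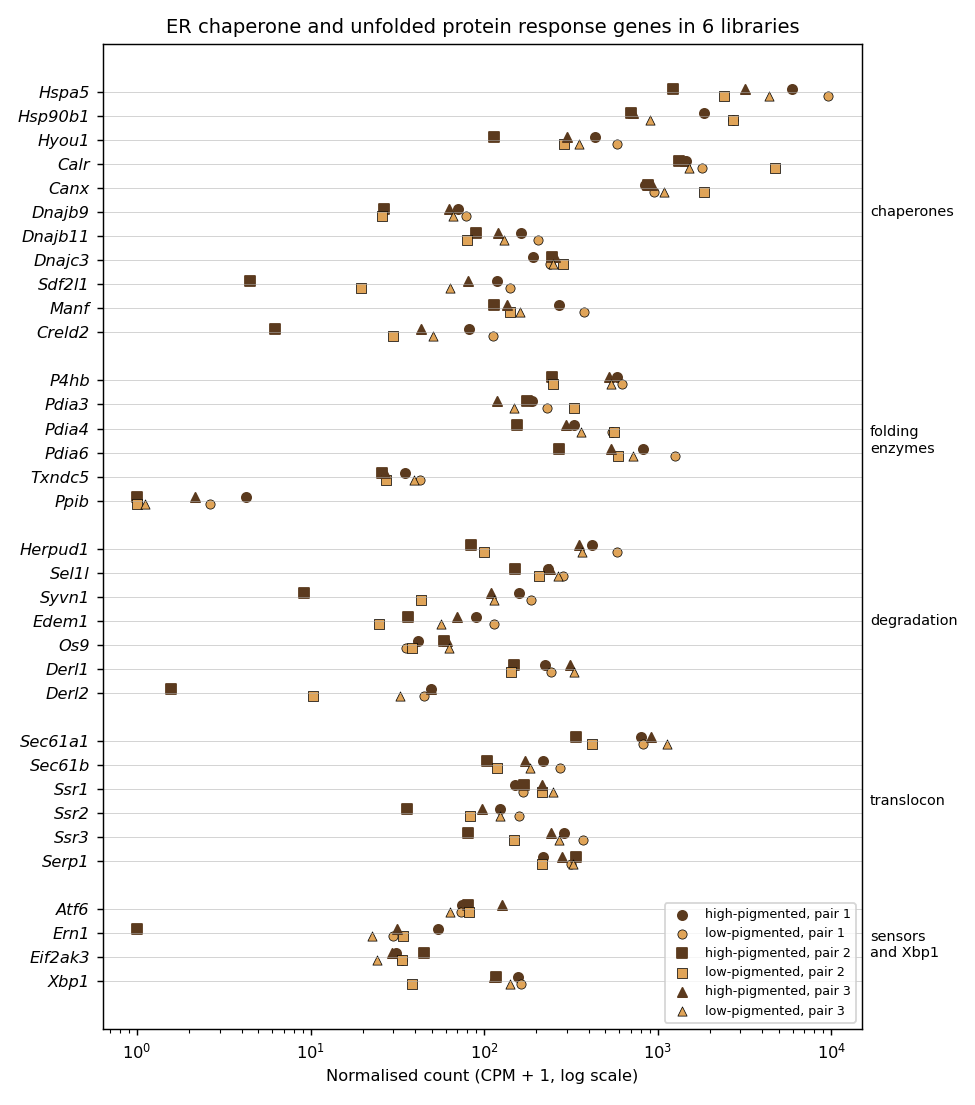
Normalised counts of the 34 genes in all 6 libraries (x axis, CPM + 1 on a log scale; genes on the y axis, by role; dark symbols high-pigmented, light symbols low-pigmented, symbol shape the pair). The libraries of pair 2 (squares) often lie apart from the other pairs of the same gene, and *Ppib* is near 0 throughout.

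Over all 3 pairs, none of the genes passed the test of edgeR or DESeq2 between the groups, and *Hspa5* alone passed in a fit that weighted the libraries, given below. Of the 34, 33 passed the filter on low counts, and 0 had an adjusted p under 0.05 by the quasi-likelihood test of edgeR, Benjamini-Hochberg adjusted over 11324 genes, beside 0% of all genes. At an unadjusted p under 0.05 there were 0 of the 33, beside 0.336% of all genes, and DESeq2 called 0 of them too. The median log2 fold change was -0.24 over the 33 genes and -0.04 over all genes tested. This median rested on single libraries, with a value of 0.0017 when the high-pigmented sample of pair 2 was dropped and 0.044 when the low-pigmented sample of pair 1 was, each of which leaves a library without its partner.

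Within pairs the direction was more even. Of the 33 genes, 20 were lower in the high-pigmented library of all 3 pairs, or 60.6%, where 17.2% of all genes tested were, and 0 were higher in all 3, where 14.4% of all genes were. The 20 included each of the 5 tested folding enzymes, 7 of 11 chaperones, 5 of 6 translocon genes, 3 of 7 degradation genes and 0 of the 3 sensors and *Xbp1*. The number depends on how pair 2 is scaled: it was 17 with totals that leave out the dominant rows (losing *P4hb*, *Txndc5* and *Sec61b*, against 14.6% of all genes) and 24 with plain totals (against 22.4%). In pairs 1 and 3 alone, 25 of the 33 were lower in both, where 28.3% of all genes were, and 3 (*Derl2*, *Atf6* and *Ern1*) were higher in both, where 29.5% were. The median differences in pairs 1, 2 and 3 were -0.30, -0.36 and -0.15 on the log2 scale, and those of all genes 0.02, -0.20 and -0.0024.

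**Figure D2:**
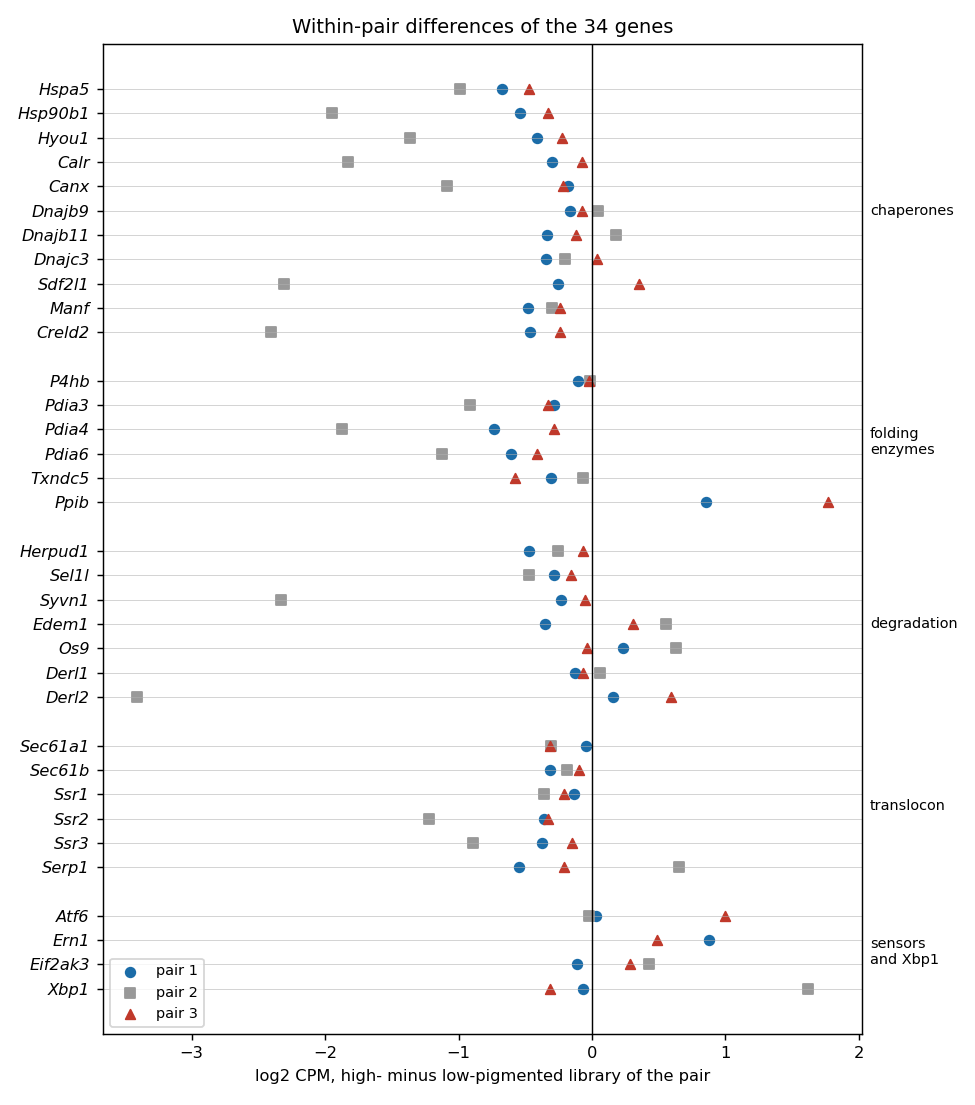
Difference in log2 CPM between the high- and the low-pigmented library of each pair (x axis; negative values are lower in high-pigmented cells) for each gene (y axis, by role). Most chaperones, folding enzymes and translocon genes lie left of 0 in pairs 1 and 3 and those of pair 2 reach from -3.41 (*Derl2*) to 1.62 (*Xbp1*). The values of *Ern1* and *Ppib* in pair 2, where a library has no read, are not drawn.

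With both libraries of pair 2 left out and the pair kept as a block, 2 of the 34 genes passed and both fell in high-pigmented cells, *Hspa5* and *Pdia6*. That is 2 of 34 beside 0.361% of 11906 genes called in this direction, and 0 of 34 beside 0.932% called higher. At an unadjusted p under 0.05 there were 13 lower, beside 6.04% of all genes, and 2 higher, *Atf6* and *Ern1*, beside 6.09%. The median log2 fold change was -0.20 over the 34 genes, and 27 of them were below 0. Over all genes tested both here and over all 3 pairs, it was 0.0004, and 5627 of 11266 were below 0. Only 2 pairs enter this fit, so its SEs and p-values lean largely on spread shared across genes. From the same libraries with no block, 0 genes were called. With all 6 libraries, the block and limma-voom's sample weights, *Hspa5* was called, which is 1 of 33 beside 0.0618% of all genes called lower, and 0 were called higher, beside 0.238%. The weights of both pair 2 libraries were low in that fit. With the block and equal weights over all 6 libraries, edgeR called 0 of the 33 beside 0% of all genes, and 3 had an unadjusted p under 0.05, each lower (*Hspa5*, *Pdia6* and *Pdia4*), beside 1.1% of all genes in this direction, and 0 higher, beside 0.786%.

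**Figure D3:**
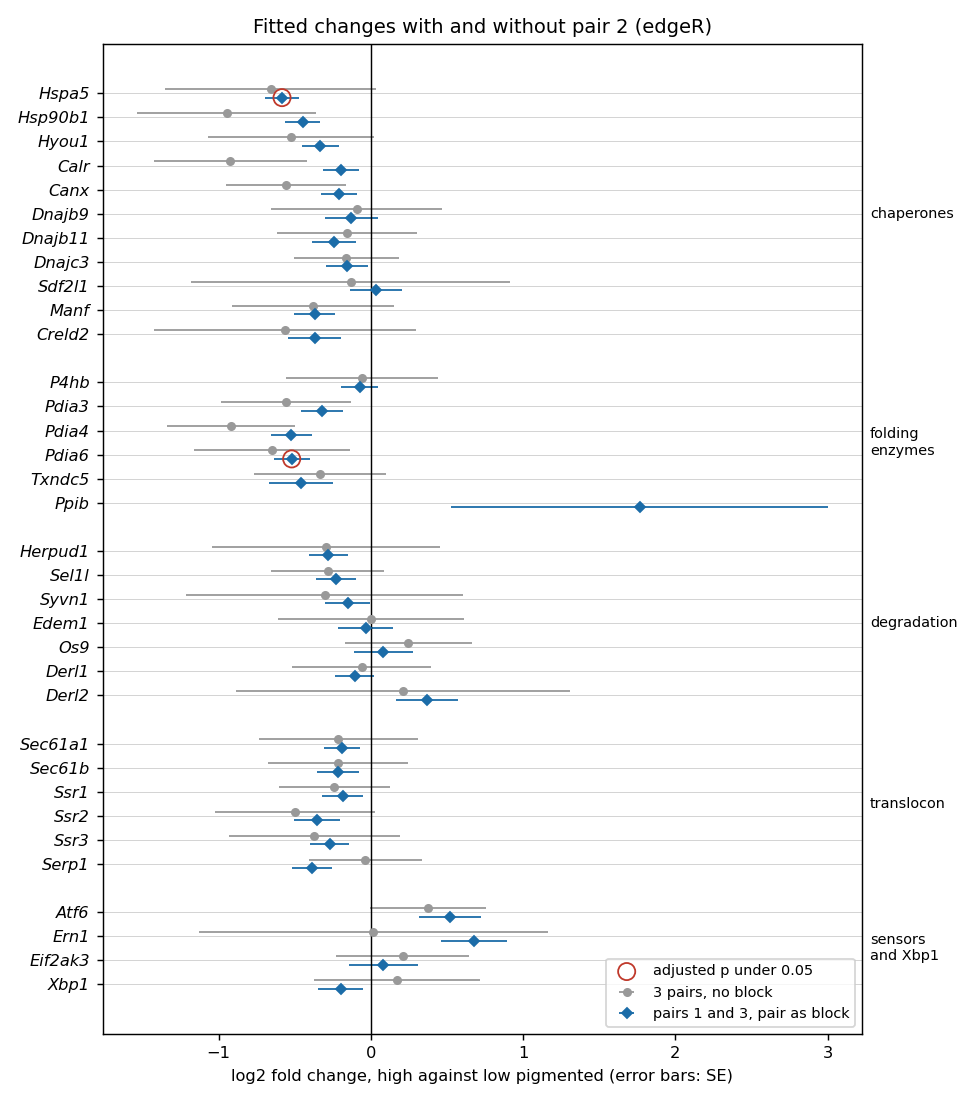
Fitted log2 fold changes of high- against low-pigmented cells with their standard errors (x axis) for each gene (y axis, by role), from all 3 pairs with no block (grey circles) and from pairs 1 and 3 with the pair as a block (blue diamonds). *Hspa5* and *Pdia6* carry the red ring of an adjusted p under 0.05, and the grey error bars of most genes cross 0.

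Among the chaperones, *Hspa5* (chr2:34771970-34777547) encodes BiP, the main Hsp70 of the ER and the partner that keeps the sensors inactive. High-pigmented cells had 5980.1, 1217 and 3173 CPM, and low-pigmented cells 9556, 2418 and 4397 CPM, in the order of pairs 1, 2 and 3 that all values below follow. Every high-pigmented library was below its partner, by 37.4%, 49.6% and 27.8%, while the pairs themselves were so far apart that the groups overlap. The size in pair 2 depends on scaling. On the log2 scale *Hspa5* differed there by -0.99, by -0.75 with totals that leave out the dominant rows and by -1.69 with plain totals. Over all 3 pairs its log2 fold change was -0.66 ± 0.69 (SE), and it fell by 0.58 ± 0.11 (SE) on the log2 scale in pairs 1 and 3 with the block (33.3% lower, edgeR's adjusted p = 0.00732). With sample weights and all 6 libraries the change was -0.60 ± 0.08 (SE; limma-voom's adjusted p = 0.00517). Its direction turned in the fit without a block only when the low-pigmented library of pair 1 was left out (0.03).

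*Calr* and *Canx* encode calreticulin and calnexin, the lectins that hold glycoproteins during folding, and *Hsp90b1* encodes GRP94, the Hsp90 of the ER. *Calr* (chr8:84841850-84846934) had 1464, 1335 and 1443 CPM in the high-pigmented libraries, a narrow range, and 1798, 4731 and 1520.2 CPM in the low-pigmented ones. *Canx* (chr11:50293961-50325673) had 842, 874 and 929 CPM against 955, 1856 and 1080.3 CPM. For both genes the groups do not overlap, and the low-pigmented library of pair 2 is the highest of the 6. Such separation was seen in 3 of the 33 genes, *Calr*, *Canx* and *Pdia4*, each lower, where 3.31% of all genes were separated in this direction, and in 0 that were higher, where 2.43% were. The log2 fold change of *Calr* was -0.92 ± 0.50 (SE) over all 3 pairs and -0.20 ± 0.12 (SE; adjusted p = 0.541, edgeR) in pairs 1 and 3 with the block. That of *Canx* was -0.56 ± 0.39 and -0.21 ± 0.12 (SE) in the same fits.

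*Hsp90b1* (chr10:86690209-86705509) had 1860.0, 705 and 717 CPM in high-pigmented and 2708, 2722 and 903 CPM in low-pigmented libraries. All 3 high-pigmented libraries were below their partners, but the groups overlap because pair 3 is low in both. Its log2 fold change was -0.95 ± 0.59 (SE) over all pairs, and -0.45 ± 0.12 (SE) in pairs 1 and 3 with the block, where it missed the threshold (adjusted p = 0.0558, edgeR). Exons of *Gm15344*, *Gm25745* and *1810014B01Rik* overlap those of *Hsp90b1*, though not over its last 300 bases, where reads of such libraries fall.

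Of the remaining chaperone genes, *Hyou1* (the Hsp110 partner of BiP), *Manf* (a secreted factor released under ER stress) and *Creld2* (a folding factor induced by ER stress) were lower in all 3 pairs. In pairs 1 and 3 with the block their log2 fold changes were -0.33, -0.37 and -0.37, none called. Exons of other genes lie opposite 48.7% of the last 300 bases of *Manf*. Its counts are uncertain if strand was not used in counting. Of the J-domain cochaperones of BiP, *Dnajb9*, *Dnajb11* and *Dnajc3* had log2 fold changes of -0.13, -0.24 and -0.16 in this fit and were each lower in 2 of 3 pairs. *Sdf2l1*, a cofactor of *Dnajb11*, was lower in pairs 1 and 2 and higher in pair 3 (-0.26, -2.30 and 0.35 on the log2 scale). In pair 2, *Sdf2l1* and *Creld2* rested on 6 and 9 reads in the high-pigmented library.

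**Figure D4:**
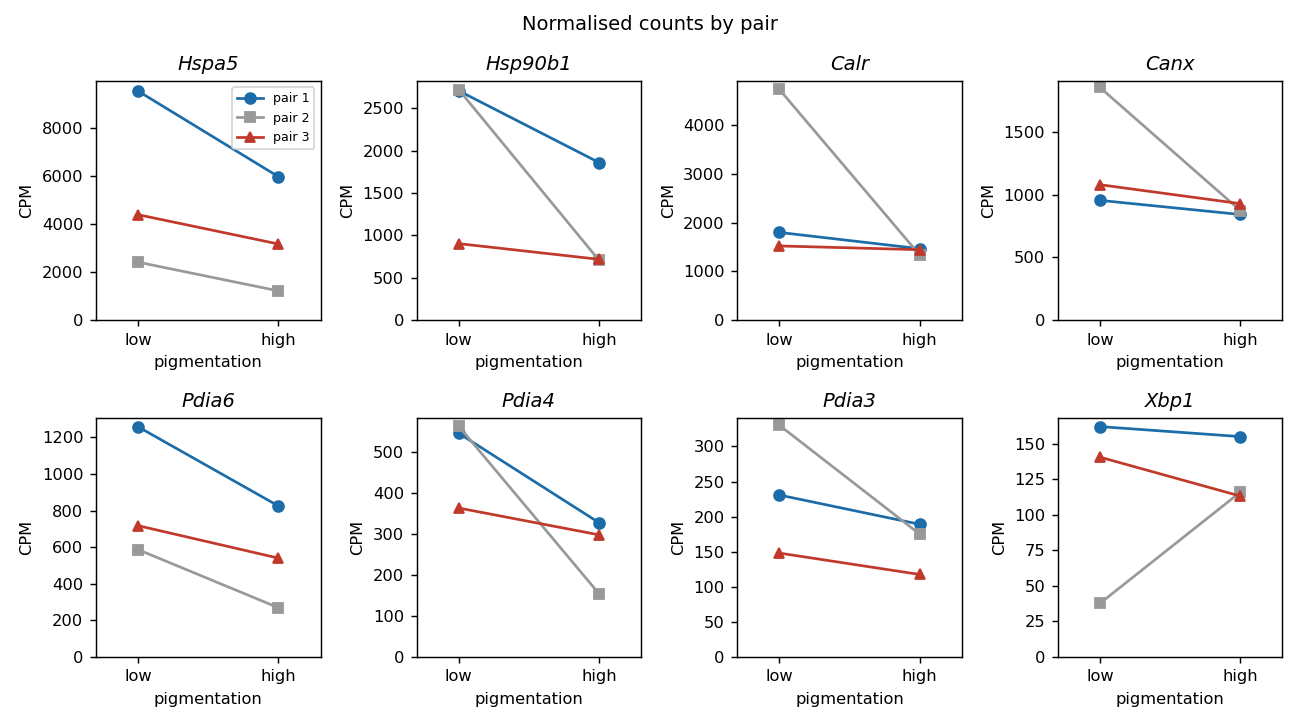
Normalised counts (y axis, CPM, from 0) in the low- and high-pigmented library (x axis) of each pair, joined by a line, for 8 of the genes. The lines of *Hspa5*, *Hsp90b1*, *Calr*, *Canx*, *Pdia6*, *Pdia4* and *Pdia3* go down in all 3 pairs, and the line of *Xbp1* goes up in pair 2.

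The disulfide isomerases form and rearrange disulfide bonds in new proteins. *Pdia6* (chr12:17266545-17284770) had 825, 268 and 539.5 CPM in high-pigmented cells against 1258, 586 and 717 CPM, lower by 34.4%, 54.2% and 24.8% within pairs. Across scalings its log2 difference in pair 2 ran from -1.83 to -0.88. Like *Hspa5*, *Pdia6* overlaps between groups and is lower in each pair. Its log2 fold change was -0.65 ± 0.51 (SE) over all pairs, and it fell by 0.52 ± 0.12 (SE) in pairs 1 and 3 with the block (adjusted p = 0.0287, edgeR). With sample weights it missed the threshold (-0.54 ± 0.11 SE, limma-voom's adjusted p = 0.058). Exons of *Atp6v1c2* lie opposite 16.7% of its last 300 bases, so its counts are uncertain to that extent if strand was not used in counting.

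*Pdia4* (ERp72; chr6:47796141-47813430) had 327, 154 and 297 CPM against 545, 562 and 363 CPM, with every high-pigmented value below every low-pigmented one. It had the smallest unadjusted p of the 33 genes over all pairs (log2 fold change -0.92 ± 0.42 SE, unadjusted p = 0.0608 in edgeR's fit over all genes). In pairs 1 and 3 with the block it was at -0.52 ± 0.13 (SE; adjusted p = 0.0539, edgeR). *Pdia3* (ERp57, which works with calnexin and calreticulin; chr2:121413775-121438687) had 189, 175 and 117 CPM against 231, 330.4 and 148 CPM. Its log2 differences of -0.29, -0.92 and -0.33 were in the same direction in each pair, without a call in any fit.

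Of the other folding enzymes, *P4hb*, which encodes the founding disulfide isomerase, had log2 differences of -0.10, -0.01 and -0.03, and that of pair 2 changed sign under other scalings. *Txndc5*, an isomerase of the thioredoxin family counted at 24.9 to 41.9 CPM, had -0.31, -0.07 and -0.58, with exons of other genes opposite 74.7% of its last 300 bases. *Ppib*, the ER cyclophilin, had 20, 0 and 10 counts in high-pigmented cells against 10, 0 and 1, and did not pass the filter over all 6 libraries. It did pass without pair 2. Its log2 fold change there, with the block, was 1.77 ± 1.24 (SE; adjusted p = 0.634, edgeR), on these few reads. An exon of *Snx22* covers 100% of the last 300 bases of *Ppib* on the opposite strand. Near-identical stretches of *Ppib*, up to 497 bases long, occur in 8 other genes. *Snx22* is among them, and its stretch may be the same overlap. Whether the overlap or the stretches in other genes lower the counts of *Ppib* was not tested.

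In the degradation group, *Herpud1* (a membrane protein of the degradation complex), *Sel1l* and *Syvn1* (the adaptor and the ubiquitin ligase at its core) were lower in each pair. *Sel1l* (chr12:91806043-91849157) had 233, 149 and 239 CPM against 283, 207 and 267 CPM, with overlapping groups and a log2 fold change of -0.28 ± 0.37 (SE). *Herpud1* (chr8:94386438-94395377) had 419.9, 82.8 and 351 CPM against 583, 98.7 and 367 CPM, with both libraries of pair 2 far below the others. Within pairs it differed by -0.47, -0.25 and -0.07 on the log2 scale. Counts of *Syvn1* are uncertain if strand was not used in counting, as *Mrpl49* lies opposite 30.3% of its last 300 bases.

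*Os9* (chr10:127095650-127121131), a lectin that recognises misfolded glycoproteins, had 40.5, 57.9 and 60.5 CPM in high-pigmented and 34.4, 37.3 and 62.1 CPM in low-pigmented libraries. It was higher in 2 of 3 pairs, with a log2 fold change of 0.25 ± 0.42 (SE). *Edem1*, which trims mannose from such proteins, had -0.35, 0.56 and 0.31, and *Derl1*, a channel component, had -0.13, 0.06 and -0.07 on the log2 scale. *Derl2*, a relative of *Derl1*, was higher in the high-pigmented library in pairs 1 and 3 (48.7 against 43.8 CPM, and 48.4 against 32.0 CPM), but only 1 read was counted in that of pair 2 against 33 in its partner. No gene of the degradation group was called in any fit.

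All translocon genes but *Serp1* were lower in high-pigmented cells of each pair. *Sec61a1*, the channel subunit (chr6:88503579-88518905), had 799.9, 337 and 916 CPM against 824, 418 and 1139 CPM. *Ssr2* (chr3:88575876-88588419) had 123, 34.8 and 96.7 CPM against 157, 81.4 and 122 CPM, and *Ssr3* (chr3:65379655-65392623) had 287, 79.4 and 242 CPM against 372, 148 and 269 CPM; both encode subunits of the translocon-associated TRAP complex. The groups overlap in each of these genes. Log2 fold changes in pairs 1 and 3 with the block ran from -0.39 for *Serp1*, which stabilises membrane proteins under stress, to -0.19 for *Ssr1* and *Sec61a1*, and none was called. *Serp1* alone of the 6 had its higher value in high-pigmented cells of pair 2 (0.65 on the log2 scale). Counts of *Sec61a1* are uncertain if strand was not used in counting, as *Gm44170* lies opposite 53.7% of its last 300 bases. Those of *Sec61b* are uncertain where 3 other genes share stretches of at least 95% identity. Such stretches were found in 11 of the 34 genes, in 7 of them with a gene that was itself counted. The longest was 652 bases, in *Derl1*. The rest are *Hsp90b1*, *Dnajb9*, *Manf*, *Txndc5*, *Ppib*, *Derl2*, *Sec61a1*, *Ssr2* and *Eif2ak3*. The search did not set aside genes at the same place in the genome. In *Hsp90b1*, *Manf*, *Txndc5*, *Sec61a1* and *Eif2ak3*, every gene found this way has exons that overlap those of the gene itself. So does *Snx22* for *Ppib*, *Mis12* for *Derl2* and *Gm10704* for *Ssr2*, each beside other genes. These stretches may be the overlapping bases and not separate copies.

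None of the sensors was lower in all 3 pairs, and none was called in any fit. *Atf6* (chr1:170704674-170867771) had 73.8, 79.4 and 126 CPM in high-pigmented and 72.2, 80.5 and 62.9 CPM in low-pigmented libraries, so the groups overlap and the high-pigmented library of pair 3 stands above the other 5. Its log2 fold change was 0.37 ± 0.38 (SE) over all pairs and 0.52 ± 0.20 (SE; adjusted p = 0.287, edgeR) in pairs 1 and 3 with the block. *Eif2ak3* (chr6:70844515-70905245) had 30.1, 44.0 and 28.4 CPM against 32.6, 32.7 and 23.2 CPM, with a log2 fold change of 0.21 ± 0.44 (SE).

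*Ern1* (chr11:106394650-106487852) had 53.1 and 30.6 CPM in high-pigmented cells of pairs 1 and 3, against 28.8 and 21.7 CPM in their partners. In pair 2 it had 0 of 3819605 counts in the high-pigmented library, against 33.3 CPM in the partner. By counting error alone, 0 allows up to 3 counts or 1.74 CPM, which would be 19.2-fold lower. Among the further ER genes described below, *Prkcsh* also had 0 counts in this library, against 57.2 CPM in the partner. So did *Pdia5*, *Prdx4*, *Edem2*, *Rnf5* and *Erlin1*, against 36, 35, 64, 23 and 7 reads in the partner. Variation beyond counting error is not covered, so the size of the difference of *Ern1* is uncertain. Pairs 1 and 3 thus lie above 0 and pair 2 below it. In pairs 1 and 3 with the block the log2 fold change was 0.68 ± 0.22 (SE; adjusted p = 0.144, edgeR).

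*Xbp1* (chr11:5520659-5525893), whose mRNA IRE1 splices, had 155, 116 and 113 CPM against 162, 37.6 and 141 CPM. It was lower in pairs 1 and 3 and higher in pair 2, where its low-pigmented library was the lowest of all 6. Gene counts hold no information on its spliced form. Its log2 fold change was 0.17 ± 0.55 (SE) over all pairs and -0.20 ± 0.15 (SE) in pairs 1 and 3 with the block.

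Genes with the ER stress response element in the window were set beside those without it as a description. The 8 with a match had a median log2 fold change of -0.61 over all pairs, and 7 of them were lower in all 3 pairs, the exception being *Dnajc3*. The 19 tested genes with an entry but no match had a median of -0.13, and 9 were lower in all 3 pairs. In pairs 1 and 3 with the block the medians were closer, -0.29 and -0.20. The median differences in pairs 1, 2 and 3 were -0.40, -1.48 and -0.23 with a match and -0.28, -0.19 and -0.10 without. The 2 sets were thus furthest apart in pair 2. The 6 genes without an entry, *Hyou1* among them, were not searched. *Pdia4* has no match in its window and was lower in each pair.

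Of 89 further ER genes in 8 lists, 87 were in the table and tested, and 0 were called over all pairs (0 also at an unadjusted p under 0.05 in edgeR's test) or in pairs 1 and 3 with the block. In the latter fit 12 of the 87 were lower at an unadjusted p under 0.05 and 1 was higher, beside 6.04% and 6.09% of all genes. Of the 87, 22 were lower in all 3 pairs (25.3%) and 7 were higher, beside the 17.2% and 14.4% of all genes given above. The number lower in all 3 pairs was 6 of 17 for further targeting and translocation genes, 4 of 12 for oligosaccharyltransferase subunits, which attach the glycan, 3 of 7 for the glycoprotein folding cycle and 5 of 12 for the PERK and ATF4 branch. It was 2 of 18 for further degradation genes, 1 of 11 for further disulfide and redox enzymes, 1 of 4 for further partners of BiP and 0 of 6 for genes of ATF6 and IRE1 processing and their relatives.

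Named by the smallest unadjusted p in each list, *Sec63*, which recruits BiP to the translocon, had 123, 71.3 and 64.1 CPM in high-pigmented and 152, 213 and 84.3 CPM in low-pigmented libraries, lower in each pair. *Lman1* (a cargo receptor for glycoproteins leaving the ER) and *Stt3a* (a catalytic subunit of oligosaccharyltransferase) were lower in each pair too, with log2 fold changes of -0.64 ± 0.42 and -0.61 ± 0.64 (SE). *Tmx3*, *Ubxn4* and *Sec62* had -0.60, -0.84 and -0.63, each with its most negative difference in pair 2, and -0.26, -0.03 and 0.15 in pairs 1 and 3 with the block. *Nupr1*, a stress-induced nuclear protein gene of the ATF4 branch, had 0.57 ± 0.47 (SE) over all pairs, with differences of -0.28, 1.08 and 0.49 in pairs 1, 2 and 3, and 0.10 in pairs 1 and 3 with the block. *Mbtps1*, the protease that cleaves ATF6 first, had 0.23 ± 0.46 (SE) over all pairs and 0.09 in pairs 1 and 3 with the block.

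**Figure D5:**
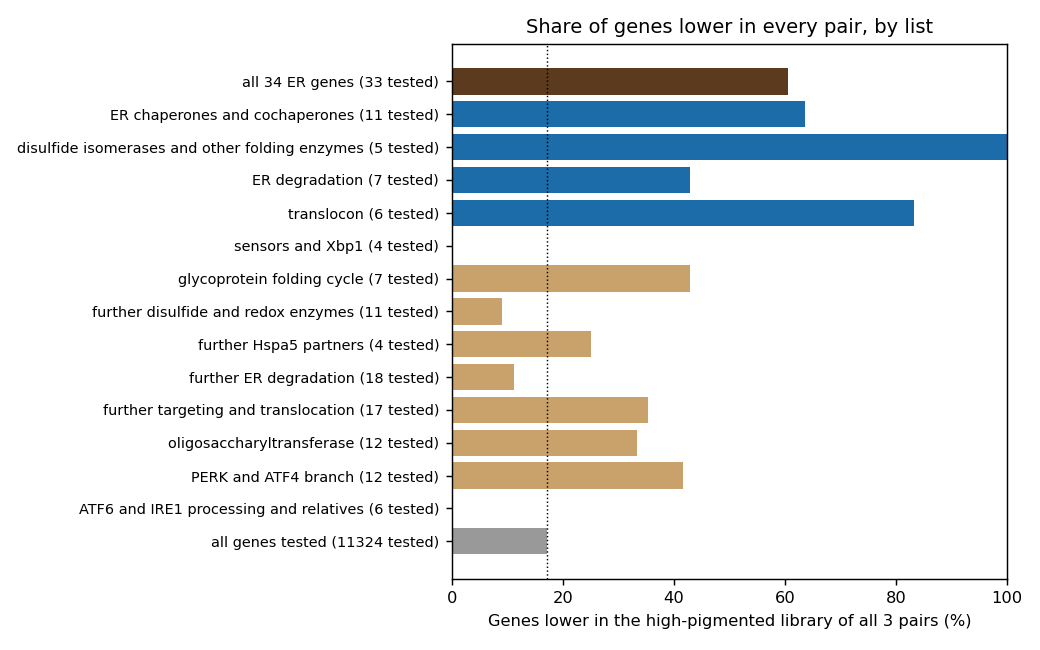
Share of tested genes that were lower in the high-pigmented library of all 3 pairs (x axis, %), for the 34 genes, their 5 role groups (blue), 8 lists of further ER genes (light brown) and all genes tested (grey, with a dotted line at its 17.2%). The folding enzymes and the translocon group lie at 100% and 83.3%, and the sensors with *Xbp1* at 0%.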

How the data were processed

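The authors deposited 1 table of raw counts per gene and library, counted with HTSeq, as its own title and last rows show per the file headers, with STAR and GRCm38 named in the submitters' processing notes; the counting mode, strand setting and annotation are not given in the sources used here. Per the labels' protocols, total RNA was made into 3′-end libraries (QuantSeq forward, Lexogen), so reads come from near the polyadenylated end, counts do not scale with length, and molecular identifiers are not mentioned. Genes were matched by the mouse symbol. Reads on no gene (12.4% to 29.5% of tallied reads) or on several genes (0.487% to 2.51%) entered neither library sizes nor tests.

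Genes were tested with edgeR 4.0.16 in R 4.3.3 (quasi-likelihood, robust, filterByExpr at a minimum count of 10, TMM, no block), and p-values were adjusted over all genes tested. Differences within pairs are of log2 CPM, with 2 as the prior count, and SEs come from the test statistic. DESeq2 1.42.0, limma-voom (3.58.1) with sample weights, other scalings, no filter, the pair block and leaving out libraries or pair 2 were alternatives. Deviations from the group mean correlated between libraries of equal suffix (r across genes 0.466, 0.316 and 0.422 in pairs 1, 2 and 3), each over the minimum of 0.1, so the suffix was taken to pair them. Every library differed from each other library beyond sampling noise (smallest chi-square per degree of freedom, 14.5). The scripts were tested on simulated data.

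Gene positions, overlapping exons and near-identical stretches (at least 100 bases at 95% identity) come from GENCODE M21 (GRCm38), and promoter windows from RefSeq (GRCm38.p6). Values in every library are given for the sensors, *Xbp1*, *Hspa5*, the 2 genes with the smallest p and the most counted gene of each role, and genes called in any fit; of the 8 further lists, the gene with the smallest p is named. *Canx* and *Sec63* were given in full after their values were seen. The 34 genes, the lists and the alternatives were chosen with earlier results of these data known. Figures were drawn with matplotlib 3.10.9. Some marker genes are not reported individually here.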

Additional observations from a re-analysis of the deposited data

How the results depend on the processing

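The count of 0 genes called, over all genes and among the 34, was the same under the block alone, no filter, RLE or upper-quartile scaling, DESeq2, without the dominant rows, without pair 2 and no block, and without any single library. It was 154 genes, 2 of them among the 34, without pair 2 and with the block, and 34 genes, 1 of them among the 34, with sample weights and the block. The replicate block alone changed no call, and moved the median of the 33 genes from -0.24 to -0.33. Leaving out single libraries moved this median between -0.50 and 0.044; the other alternatives kept it between -0.33 and -0.20. Upper-quartile scaling and leaving out pair 2 with no block were chosen after the data were seen. Of the 33 genes, 14 kept their direction under all alternatives run, 14 changed it only when a single library was left out, and 5 changed it elsewhere too. The latter were *Derl2* (-0.39 with the block), *Ern1* (-0.58 with the block, -0.0065 with DESeq2), *Sdf2l1* (0.035 without pair 2 and with the block, 0.0030 with sample weights), *Edem1* (-0.0056 with no filter, -0.034 without pair 2 with the block, -0.11 without it, -0.042 with sample weights) and *Xbp1* (-0.20, -0.18 and -0.13 in the last 3 of these). Without single libraries, the log2 fold changes that turned ranged from -1.32 to 0.027 for *Hspa5*, -0.45 to 0.23 for *Dnajb9*, -0.44 to 0.24 for *Dnajb11*, -0.80 to 0.73 for *Sdf2l1*, -0.86 to 0.21 for *Manf*, -1.40 to 0.13 for *Creld2*, -0.37 to 0.24 for *P4hb* and -0.74 to 0.29 for *Herpud1*. The range was -0.94 to 0.25 for *Syvn1*, -0.39 to 0.70 for *Edem1*, -0.37 to 0.25 for *Derl1*, -0.20 to 0.77 for *Derl2*, -0.52 to 0.15 for *Sec61a1*, -0.48 to 0.13 for *Sec61b*, -0.71 to 0.0100 for *Ssr3*, -0.20 to 0.10 for *Serp1*, -0.82 to 0.59 for *Ern1*, -0.0065 to 0.32 for *Eif2ak3* and -0.24 to 0.52 for *Xbp1*. Of the 14 genes that kept their direction, 13, all but *Pdia4*, moved by over 1.5 times when single libraries were left out. Their ranges were -1.58 to -0.71 for *Hsp90b1*, -0.98 to -0.15 for *Hyou1*, -1.20 to -0.23 for *Calr*, -0.73 to -0.21 for *Canx*, -0.25 to -0.04 for *Dnajc3*, -0.80 to -0.24 for *Pdia3*, -1.09 to -0.25 for *Pdia6*, -0.52 to -0.20 for *Txndc5*, -0.41 to -0.09 for *Sel1l* and *Ssr1*, 0.09 to 0.57 for *Os9*, -0.87 to -0.13 for *Ssr2* and 0.08 to 0.51 for *Atf6*. The cause was not tested. Single values of pair 2 rest on few or no reads, as where *Derl2* has 1 read and *Ern1* none in the high-pigmented library.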
